A study of Mus musculus with 8 samples.

Results

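The thrombospondins are secreted matrix glycoproteins encoded in the mouse by Thbs1, Thbs2, Thbs3, Thbs4 and Comp, and these 5 genes were followed here among 18193 measured genes. They were chosen by symbol: 8 probe sets of 45037 named 1 of the 5 genes and no other gene, and each gene's value is that of its probe set with the highest mean. Expression was measured on 8 single-channel arrays with RNA from BALB/c mouse small intestine at an age of 6 to 9 days. The groups were ICC-DMP cells (n = 3), ICC-MY cells (n = 3) and tunica muscularis tissue, the muscle coat of the gut wall (n = 2). In this field ICC are the interstitial cells of Cajal, which pace gut muscle and relay nerve signals to it; DMP usually means the deep muscular plexus and MY the myenteric region, although the labels give only the abbreviations. All groups share strain, age range and organ, the labels name no genotype or treatment, and they give neither the number of animals behind a sample nor how the cells were isolated. The tissue holds many cell types, ICC among them.

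Thrombospondins are calcium-binding proteins that are not structural fibres themselves but regulate how cells attach to, remodel and signal through the matrix. Thbs1 and Thbs2 form trimers, inhibit angiogenesis, and carry the type 1 repeats through which they bind the receptor CD36; Thbs1 can also release transforming growth factor beta (TGF-beta) from its latent complex. Thbs3, Thbs4 and Comp (cartilage oligomeric matrix protein) form pentamers and lack those repeats. Thbs4 is known from muscle, tendon and nerve, where it also acts inside the endoplasmic reticulum on the stress sensor ATF6, and Comp is best known from cartilage and tendon.

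The 5 genes did not share a pattern over the 3 groups. Thbs4 was highest in ICC-DMP, by 3.61 log2 units (12.2-fold) over tissue and by 2.71 (6.56-fold) over ICC-MY. Thbs1 was highest in ICC-DMP, intermediate in ICC-MY and lowest in tissue. Thbs3 was lowest in ICC-MY. Thbs2 and Comp passed the test in none of the 3 comparisons. Differences were tested with limma over 18193 genes and adjusted by Benjamini-Hochberg; passing means an adjusted p under 0.05.

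**Figure D1:**
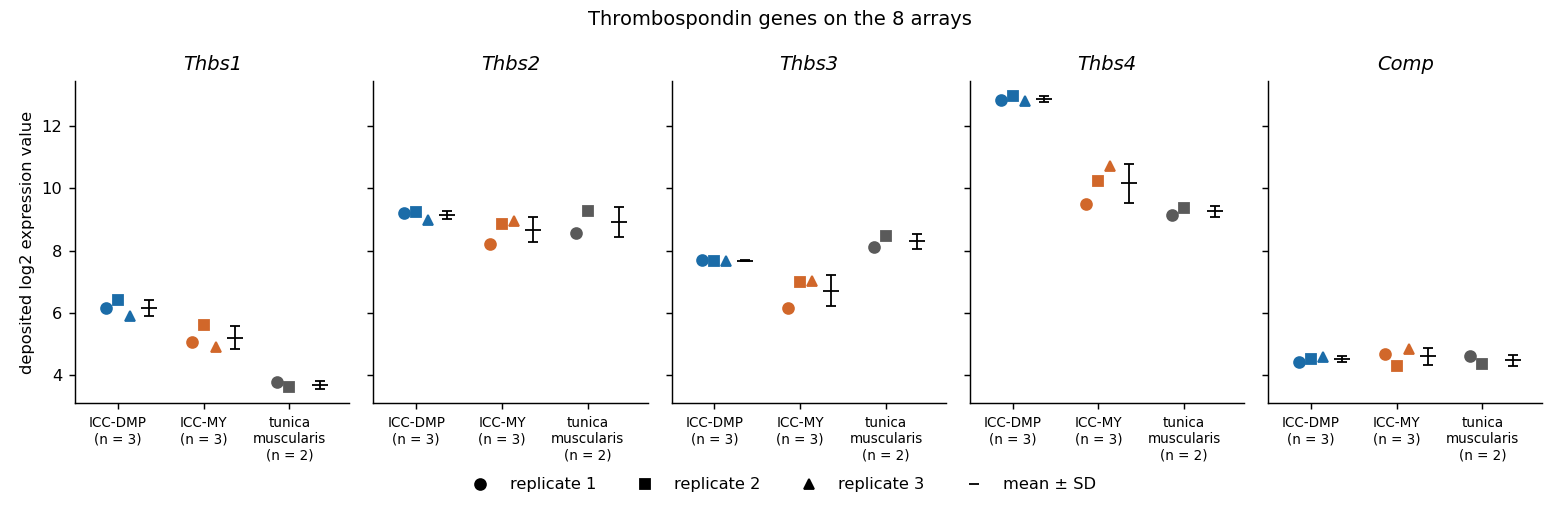
Each panel plots 1 gene, with the deposited log2 expression value on the vertical axis, a symbol for each of the 8 arrays (shape gives the replicate number) and, to its right, the group mean with its SD. The 3 ICC-DMP arrays of Thbs4 lie between 12.82 and 12.98, above all other arrays, and Comp lies between 4.30 and 4.83 in every group. Heights are not comparable between genes, because each is read by a different probe set.

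Markers of cell types were read beside the labels before the members were compared. The marker lists were chosen with earlier results of these data known, so they describe the samples and are no independent check of the labels. Kit, the receptor that marks ICC, was higher in both ICC groups than in tissue, by 3.27 (SE 0.50, adjusted p = 0.00366) in ICC-DMP and 3.92 (SE 0.50, adjusted p = 0.00112) in ICC-MY by limma. Of 5 ICC markers, 2 passed as higher in ICC-DMP (median difference 0.66) and 4 in ICC-MY (median 3.65), each against tissue. Ano1 was in both counts, at 2.09 and 2.03. Both Ano1 calls were lost with any ICC-DMP array left out (adjusted p = 0.0512 to 0.0995 by limma). They were also lost when limma fitted the spread with an intensity trend (0.0622 and 0.0619). Between the classes 2 of the 5, Prkcq (-4.52) and Edn3 (-3.62), were lower in ICC-DMP. Kit did not pass there in the main fit (-0.65, adjusted p = 0.553 by limma). It passed as lower in ICC-DMP by limma under quantile normalization (-0.91, adjusted p = 0.0167) and with its probe sets averaged (-1.25, adjusted p = 0.0422). Without the first replicates of ICC-MY and of tissue the Kit difference was -1.115. All 7 mesothelial markers passed as lower in each ICC group than in tissue, as did 8 of 9 enteric neuron and 8 of 9 macrophage markers. In ICC-DMP, 5 of 10 smooth muscle (median -0.81) and 3 of 10 fibroblast and PDGFRA cell markers (median -0.40) passed as lower than in tissue. In ICC-MY these were 9 of 10 (median -3.57) and 6 of 10 (median -1.41). Of 6 pericyte markers, 2 were higher than in tissue in each ICC group. Of all genes, 3.72% passed as higher and 7.32% as lower than tissue in ICC-DMP, and 4.05% and 9.78% in ICC-MY. Between the classes 3.3% passed as lower in ICC-DMP. The medians of the arrays were 4.18 to 4.30. The first replicates of ICC-MY and of tissue spread less over probe sets (SD 1.98 and 2.06) than the other arrays (2.22 to 2.31). Several results are therefore also given without these narrow-range arrays, where tunica muscularis replicate 2 alone stands for tissue. The marker counts above used all arrays. Without the narrow-range arrays more smooth muscle and fibroblast markers were called lower than in tissue, and the pericyte counts changed. In such RNA, fewer cells of a type and less RNA per cell cannot be told apart.

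In the comparison of the ICC classes with each other, 3 of the 5 genes passed (Thbs4, Thbs1 and Thbs3), all of them higher in ICC-DMP. Of all genes 8.67% passed, 5.36% as higher and 3.3% as lower in ICC-DMP. The arrays of the ICC classes did not overlap for 4 of the 5 genes and for 25.6% of all genes. The median difference of the 5 was 0.96, against -0.02 over all genes. In ICC-DMP against tissue 2 of 5 passed, both higher, where 11% of all genes passed, 3.72% higher and 7.32% lower. Arrays did not overlap for 3 of 5, against 38.5% of all genes. In ICC-MY against tissue 2 of 5 passed, 1 higher and 1 lower, where 13.8% of all genes passed, 4.05% higher and 9.78% lower. Arrays did not overlap for 3 of 5, against 34.2% of all genes. With so few members these counts are a description, and the comparisons share samples. The background of the comparison between the ICC classes moved with the settings: 976 genes were higher and 601 lower in ICC-DMP, 1282 and 1275 under quantile normalization. With the replicate number as a block 2617 genes passed instead of 1577, and every call on the 5 genes stayed.

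**Figure D2:**
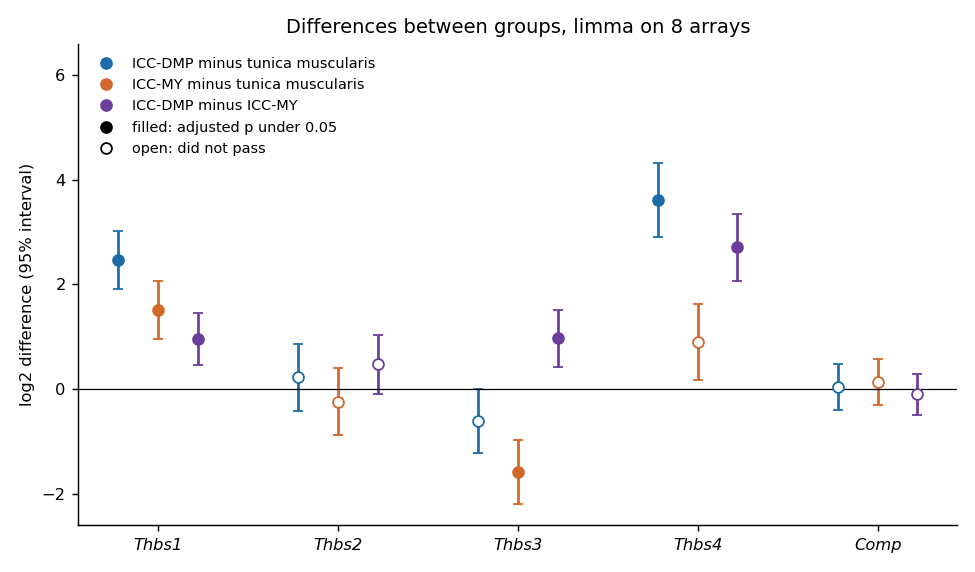
Points give the log2 difference of each gene in the 3 comparisons and bars its 95% interval from limma; filled points passed at an adjusted p under 0.05. Thbs4 in ICC-DMP against tissue is the highest at 3.61, Thbs3 in ICC-MY against tissue the lowest at -1.58, and the intervals of Thbs2 and Comp all span 0.

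Sequence upstream of the start was at hand from RefSeq (GRCm38.p6) for 3 of the 5 genes. These differ in pattern, being highest in ICC-DMP (Thbs4), lowest in ICC-MY (Thbs3) and not called (Thbs2). They are shown because a reader comparing the 3 patterns can then compare the sequences beside them. Each is the 250 bases before the annotated start, read in the direction of transcription. Capitals mark a GC box (GGGCGG) or a TATA box (TATAAA), searched on both strands.
Thbs4, chr13:92794819-92795068, minus strand: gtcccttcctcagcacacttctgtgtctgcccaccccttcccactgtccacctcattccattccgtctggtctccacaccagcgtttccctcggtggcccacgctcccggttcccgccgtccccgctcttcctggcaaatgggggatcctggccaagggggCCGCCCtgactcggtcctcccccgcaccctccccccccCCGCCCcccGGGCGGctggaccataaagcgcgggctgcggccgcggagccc
Thbs3, chr3:89214930-89215179, plus strand: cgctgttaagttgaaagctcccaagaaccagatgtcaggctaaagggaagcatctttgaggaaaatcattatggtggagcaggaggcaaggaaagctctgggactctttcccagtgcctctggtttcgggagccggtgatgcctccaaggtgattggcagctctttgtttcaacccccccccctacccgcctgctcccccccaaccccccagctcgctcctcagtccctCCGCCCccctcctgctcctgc
Thbs2, chr17:14694263-14694512, minus strand: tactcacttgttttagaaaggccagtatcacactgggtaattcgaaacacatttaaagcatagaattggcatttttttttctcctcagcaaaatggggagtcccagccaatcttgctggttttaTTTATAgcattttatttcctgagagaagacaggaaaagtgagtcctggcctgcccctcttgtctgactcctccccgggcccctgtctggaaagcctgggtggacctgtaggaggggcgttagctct

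The Thbs4 window held 3 GC boxes, whose first bases stand at -89, -51 and -42 from the start, and was 70.8% G and C. The Thbs3 window held 1 GC box, at -21, and was 58.8% G and C. The Thbs2 window held none, was 46.8% G and C, and held the only TATA box match, on the opposite strand at -126. Of 32851 RefSeq promoter windows of the same length, 32.7% held a GC box and 12.4% a TATA box, and the median was 52.4% G and C. Neither an AP-1 site (TGANTCA, in 6.75% of the windows) nor a CArG box, the serum response element core (in 1.47%), was found in the 3 windows. A match describes the letters alone, and no binding was measured here.

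Thbs4 lies on chromosome 13 (GRCm38.p6, 92751586 to 92794818, minus strand). It read 12.83, 12.98 and 12.82 in the 3 ICC-DMP samples, 9.51, 10.24 and 10.73 in the ICC-MY samples and 9.14 and 9.38 in tissue. The ICC-DMP samples lay 2.09 above the highest ICC-MY sample and 3.44 above the highest tissue sample, and the ICC-MY and tissue samples were apart by only 0.14. Group means were 12.88 ± 0.09 (SD, n = 3), 10.16 ± 0.61 (n = 3) and 9.26 ± 0.16 (n = 2). ICC-DMP exceeded tissue by 3.61 (SE 0.31, adjusted p = 0.000165), the 33rd largest increase of 18193 genes, and ICC-MY by 2.71 (SE 0.28, adjusted p = 0.000497), the 168th largest. Both calls held in every alternative run, at 3.40 to 3.73 and 2.39 to 3.0. Thbs4 may have become known as an ICC gene from profiles of these same cells, so its rise is no independent evidence of what the cells are.

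For Thbs4 in ICC-MY against tissue the outcome changed with 1 array and with 3 other settings. The difference was 0.90 (SE 0.31, interval 0.18 to 1.62, adjusted p = 0.106) and did not pass in limma. Without ICC-MY replicate 1, the lowest of its group and an array of narrow range, it was 1.22 (adjusted p = 0.0053) and passed. It also passed without both narrow-range arrays (1.11, adjusted p = 0.0153), after quantile normalization of the arrays (0.94, adjusted p = 0.016) and with array weights (1.13, adjusted p = 0.0434). The 3 ICC-MY samples were all above both tissue samples.

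Thbs1 lies on chromosome 2 (118111876 to 118127133). It read 6.14, 6.41 and 5.91 in ICC-DMP, 5.07, 5.61 and 4.90 in ICC-MY and 3.77 and 3.60 in tissue. The 3 groups did not overlap, in the order ICC-DMP, ICC-MY, tissue. The means were 6.15 ± 0.25 (SD, n = 3), 5.19 ± 0.37 (n = 3) and 3.68 ± 0.12 (n = 2). ICC-DMP was higher than tissue by 2.47 (SE 0.24, adjusted p = 0.000353 by limma) and ICC-MY by 1.51 (SE 0.24, adjusted p = 0.00391). Both calls held in all alternatives. The tissue values lie below the medians of those arrays (4.23 and 4.18), and without detection calls it cannot be told whether they stand above background, so no fold is given. Between the ICC classes the difference was 0.96 (SE 0.22, adjusted p = 0.0292), at 1.07, 0.80 and 1.01 within replicate numbers 1, 2 and 3. Leaving out 1 array ended this call in 4 cases by limma: ICC-DMP replicate 1 (adjusted p = 0.109), ICC-DMP replicate 2 (0.128), ICC-MY replicate 1 (0.0623) and ICC-MY replicate 3 (0.0975).

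A second, dimmer Thbs1 probe set showed the difference from tissue but not that between the ICC classes. It read 5.10, 4.13 and 4.73 in ICC-DMP, 4.75, 4.05 and 4.34 in ICC-MY and 3.37 and 2.84 in tissue, so the ICC classes overlapped. Adjusted over all 45037 probe sets in limma, it passed against tissue in ICC-DMP (1.55, SE 0.32, adjusted p = 0.0152) and in ICC-MY (1.28, SE 0.32, adjusted p = 0.0358). Between the classes it differed by 0.27 (SE 0.29, adjusted p = 0.743). With both probe sets averaged the difference between the classes was 0.62 (adjusted p = 0.0383 by limma), smaller than the 0.96 of the brighter probe set.

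**Figure D3:**
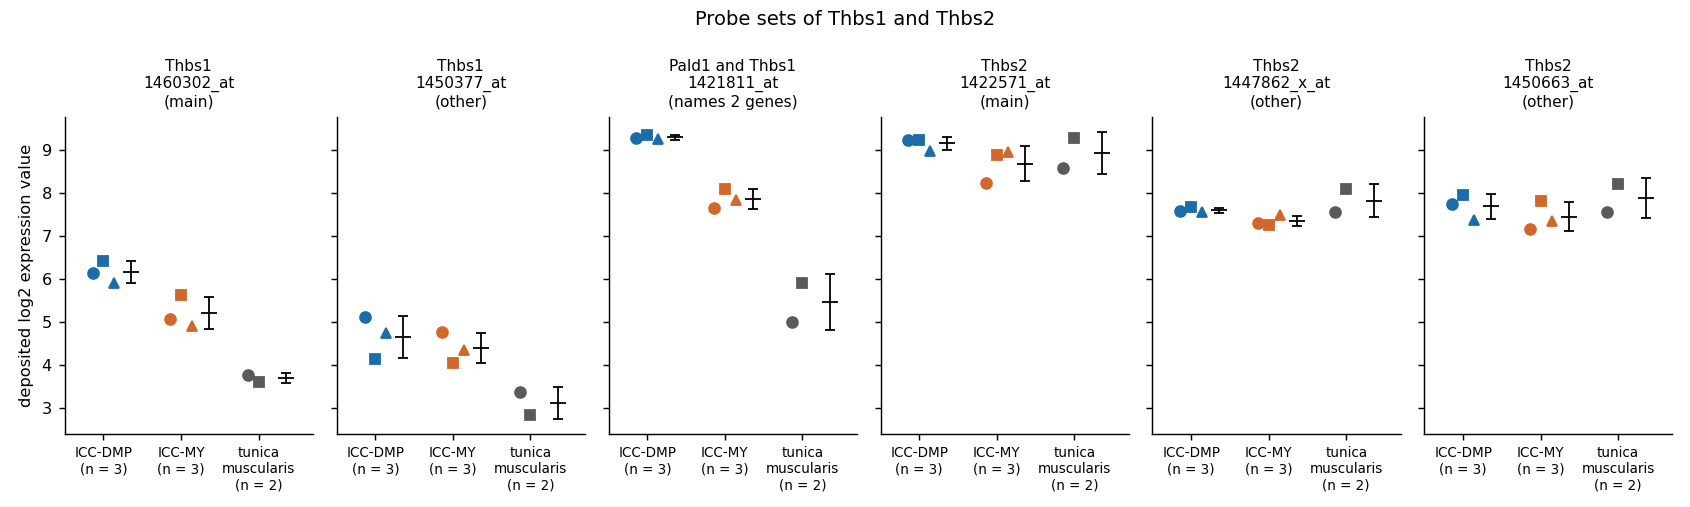
The log2 value on each of the 8 arrays is plotted for every Thbs1 and Thbs2 probe set, with group mean and SD; symbols mark replicate numbers as in the plot of all members. Tissue is lowest in all 3 probe sets that name Thbs1, including the one that also names Pald1 (5.0 and 5.91), and the 3 Thbs2 probe sets show groups that overlap or nearly do.

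Thbs1 is known as a gene that serum and stress switch on early, and the early response genes ran in the same order as Thbs1. Of 22 immediate early and stress response genes, 18 passed as higher in ICC-DMP than in tissue, 14 in ICC-MY than in tissue, and 15 in ICC-DMP than in ICC-MY, with medians of 4.38, 2.78 and 1.5 against -0.04, -0.02 and -0.02 over all genes. Without both narrow-range arrays the counts were 18, 14 and 16. Of all genes 3.72%, 4.05% and 5.36% passed as higher in these comparisons. The mean level of the 22 genes ranged over arrays from 9.92 to 10.14 in ICC-DMP, 8.32 to 9.07 in ICC-MY and 6.45 to 6.48 in tissue. The genes whose pattern was most like that of Thbs1 over the 8 arrays were Atf3 (Pearson r = 0.994), Erdr1 (0.989) and Jun (0.985). These correlations describe 3 groups of arrays, and the part of the early response in the Thbs1 values was not tested. Platelets carry much Thbs1 protein. Of 8 platelet and megakaryocyte markers none was higher in either ICC group than in tissue and 7 did not pass in either direction (list medians -0.11 in ICC-DMP and -0.05 in ICC-MY). The one that passed as lower, Pf4 (platelet factor 4), averaged 4.30 in ICC-DMP, 5.24 in ICC-MY and 8.74 in tissue. The list was dim, with a mean level per array of 4.04 to 4.93, and the part of platelets in the Thbs1 values was not tested.

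Thbs2, on chromosome 17 (14665500 to 14694262, minus strand), encodes the second inhibitor of angiogenesis in the family. It read 9.22, 9.23 and 8.98 in ICC-DMP, 8.22, 8.87 and 8.94 in ICC-MY and 8.57 and 9.27 in tissue. The tissue samples overlapped with those of both ICC classes. The means were 9.14 ± 0.14 (SD, n = 3), 8.68 ± 0.40 (n = 3) and 8.92 ± 0.50 (n = 2). No difference passed in limma: 0.22 (interval -0.42 to 0.86, adjusted p = 0.777) for ICC-DMP and -0.24 (-0.88 to 0.40, adjusted p = 0.709) for ICC-MY against tissue. Between the ICC classes it was 0.47 (-0.10 to 1.04, adjusted p = 0.398), and their arrays were apart by 0.04. The upper bound of 1.04 is a doubling on the log2 scale, so equal levels were not shown.

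The other Thbs2 probe sets gave the same outcome. The first averaged 7.59 in ICC-DMP, 7.34 in ICC-MY and 7.81 in tissue, and the second 7.68, 7.44 and 7.88. The first was lower in ICC-MY than in tissue by 0.47 (SE 0.18), which did not pass either (adjusted p = 0.145 by limma over all probe sets). Against tissue their ICC-DMP differences had the opposite sign to that of the brightest probe set (-0.22, SE 0.18, and -0.20, SE 0.28, against 0.22, SE 0.28), and none passed.

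Thbs3 lies on chromosome 3 (89215180 to 89226841, plus strand). By the brightest probe set of each gene it was the only member with a mean below that of tissue in both ICC groups. The dimmer Thbs2 probe sets also averaged below tissue in both. Thbs3 read 7.70, 7.66 and 7.67 in ICC-DMP, 6.14, 6.98 and 7.02 in ICC-MY and 8.13 and 8.46 in tissue. The groups did not overlap, with tissue highest and ICC-MY lowest, and the 3 ICC-DMP samples were nearly equal. The means were 7.68 ± 0.02 (SD, n = 3), 6.71 ± 0.49 (n = 3) and 8.30 ± 0.23 (n = 2). ICC-MY was lower than tissue by limma (-1.58, SE 0.27, adjusted p = 0.00495), a 2.99-fold difference that passed in all alternatives (-1.75 to -1.30).

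The other Thbs3 differences were less settled. ICC-DMP exceeded ICC-MY by 0.97 (SE 0.24, adjusted p = 0.0429 by limma), at 1.56, 0.68 and 0.66 within replicate numbers 1, 2 and 3. It no longer passed when ICC-DMP replicate 1 (adjusted p = 0.150), replicate 2 (0.140) or replicate 3 (0.126) was left out, or ICC-MY replicate 2 (0.0555), or when each array was centred on its median (0.0625). Without both narrow-range arrays it stayed, at 0.68 (adjusted p = 0.0084). The difference of ICC-DMP from tissue was -0.62 (SE 0.27, adjusted p = 0.229 by limma). It did not pass with all arrays but did under quantile normalization (-0.69, 0.0333), without ICC-MY replicate 1 (-0.62, adjusted p = 0.0329) and without both narrow-range arrays (-0.78, adjusted p = 0.013).

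Comp, on chromosome 8 (70373548 to 70382066), was dim and showed no difference that passed. It read 4.41, 4.52 and 4.59 in ICC-DMP, 4.69, 4.30 and 4.83 in ICC-MY and 4.60 and 4.35 in tissue, all close to the array medians. The 3 groups overlapped. By limma it differed by 0.03 (interval -0.41 to 0.47, adjusted p = 0.972) and 0.13 (-0.31 to 0.57, adjusted p = 0.794) from tissue in ICC-DMP and ICC-MY, and by -0.10 (-0.49 to 0.29, adjusted p = 0.855) between the classes. No detection calls were used, so whether Comp was expressed at all cannot be told from these values. Tendon and cartilage genes, the tissues Comp is known from, were mostly as dim. Of 12, 1 was higher and 1 lower in ICC-DMP than in tissue, 2 were lower in ICC-MY, and their mean level per array was 3.69 to 4.44. Of all genes, 3.72% were higher and 7.32% lower in ICC-DMP than in tissue, and 9.78% were lower in ICC-MY. With so few genes these counts are a description. Col9a1 (10.66 in ICC-DMP) was far brighter than the rest of that list.

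Smooth muscle markers also differed between the ICC classes in the direction of Thbs4, Thbs1 and Thbs3. Of 10, 8 were higher in ICC-DMP than in ICC-MY (median 2.71), and 9 without both narrow-range arrays. Their mean level ranged from 9.70 to 9.95 over the ICC-DMP arrays, 7.05 to 7.79 over ICC-MY and 10.27 to 11.22 over tissue. From highest to lowest, the smooth muscle markers ran tissue, ICC-DMP, ICC-MY, and Thbs4 ran ICC-DMP, ICC-MY, tissue. For Thbs3 the order of the 3 groups was that of the smooth muscle markers. Fibroblast and PDGFRA cell markers were called higher in ICC-DMP than in ICC-MY for 1 of 10 (3 without both narrow-range arrays), with mean levels of 9.58 to 10.00, 8.83 to 9.53 and 10.31 to 11.13 in ICC-DMP, ICC-MY and tissue. Of all genes 5.36% were called higher and 3.3% lower in ICC-DMP than in ICC-MY. The part of smooth muscle, fibroblast and PDGFRA cells in the member values was not tested.

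Over the 8 arrays Thbs4 followed Gimap6 (Pearson r = 0.995), Angptl6 and Slc25a33 (0.985 each) most closely. Angptl6, an angiopoietin-like secreted factor, averaged 9.86 in ICC-DMP, 6.89 in ICC-MY and 6.46 in tissue. Thbs3 followed Cavin3 (0.993), a caveola coat gene, then Ola1 (0.991) and Rbmx2 (0.988). Thbs2 followed the BMP receptor gene Bmpr1a (0.985), Polr2h (0.981) and Rbbp9 (0.977). The nearest patterns to Comp were looser, at 0.925 (Gimap7), 0.905 (Wdr18) and 0.897 (Sars2). All are descriptions over 8 arrays in 3 groups, and any gene that separates the groups alike will rank high. Among the members, Thbs1 and Thbs4 had the highest correlation (0.86) and Thbs2 and Comp the lowest (-0.47).

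Nearest neighbours in the genome were read beside the members, and 3 of the 10 passed in at least 1 comparison (Smoc2, Serinc5 and Mtx3). Smoc2 and Serinc5 passed between the ICC classes, where 8.67% of all genes passed. Smoc2 and Mtx3 passed in ICC-DMP against tissue (11% of all genes), and none in ICC-MY against tissue (13.8%). The share of all genes that passed in at least 1 comparison was not computed. Serinc5, on the downstream side of Thbs4 at 39638 bases, was higher in ICC-DMP than in ICC-MY, as Thbs4 was, by 1.57 (adjusted p = 0.0251 by limma). That call was lost with any ICC-DMP array left out and without ICC-MY replicate 1 or 3 (adjusted p = 0.0501 to 0.112), and Serinc5 did not pass against tissue. Mtx1, a mitochondrial import gene 1272 bases upstream of Thbs3, passed in no comparison, averaging 9.60 in ICC-DMP, 9.72 in ICC-MY and 9.28 in tissue. Its relative Mtx3 lies 49924 bases upstream of Thbs4. It was higher in ICC-DMP than in tissue by 1.28 (SE 0.31, adjusted p = 0.0328 by limma), a call lost with any ICC-DMP array left out (adjusted p = 0.0915 to 0.103), without ICC-MY replicate 2 (0.0529) and without tunica muscularis replicate 1 (0.192). Between the ICC classes, where Thbs4 differed by 2.71, Mtx3 differed by 0.51 (SE 0.28, adjusted p = 0.401). Smoc2, the named gene next to Thbs2 at a distance of 260709 bases, was higher in ICC-DMP than in ICC-MY by 3.42 (SE 0.41, adjusted p = 0.00114), where Thbs2 did not pass.

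Receptors and binding partners of thrombospondins changed in both directions. Of 24 measured, 4 were higher and 2 lower in ICC-DMP than in ICC-MY (median 0.01, against -0.02 over all genes). Against tissue 2 were higher and 2 lower in ICC-DMP, and 1 higher and 5 lower in ICC-MY. Of all genes, 5.36% were called higher and 3.3% lower in the first comparison. The shares were 3.72% and 7.32% for ICC-DMP against tissue, and 4.05% and 9.78% for ICC-MY against tissue. These shares also stand behind the counts of the lists that follow, and with so few genes the counts are a description. Col9a1, a chain of collagen IX, which Comp binds in cartilage, had means of 10.66 ± 0.30 (SD, n = 3, ICC-DMP), 6.75 ± 0.28 (n = 3, ICC-MY) and 7.60 ± 0.72 (n = 2, tissue). It was thus higher in ICC-DMP than in ICC-MY by 3.91 (SE 0.29, adjusted p = 0.000103 by limma), while Comp was near the array median in all groups. Itgb3, the beta subunit of the vitronectin receptor that binds the RGD motif of Thbs1, was lower in ICC-MY than in tissue (-2.68, SE 0.30) and than in ICC-DMP (1.63 higher there, SE 0.27). Itga6, a laminin receptor subunit that also binds Thbs1, was lower than tissue in ICC-DMP (-3.40, SE 0.42). It was also lower in ICC-MY (-2.26, adjusted p = 0.00839 by limma). Notch3 was highest in ICC-MY (7.15 ± 0.24, n = 3), by 1.80 (SE 0.21) over tissue.

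Cd47, Cacna2d1 and Cd36 are among the best known receptors and were chosen for this paragraph after their values were seen. Cd47, the widely expressed receptor of the C-terminal domain, averaged 9.00 in ICC-DMP, 8.25 in ICC-MY and 9.16 in tissue. It passed only in ICC-MY against tissue (-0.91, SE 0.24, adjusted p = 0.0366 by limma), a call lost without any ICC-DMP array, without ICC-MY replicate 1 or 3 and without tunica muscularis replicate 2 (adjusted p = 0.0551 to 0.214), and with probe sets averaged (0.0741). Cacna2d1, the calcium channel subunit that thrombospondins bind at synapses, was lower than tissue in both ICC groups, by limma at -1.13 (SE 0.30, adjusted p = 0.0495) and -1.22 (SE 0.30, adjusted p = 0.0301). Both calls were lost with its probe sets averaged (adjusted p = 0.178 and 0.304), as they were without any ICC-DMP array (0.0547 to 0.142), ICC-MY replicate 3 (0.0783 and 0.0798) or tunica muscularis replicate 2 (0.219 and 0.163). Leaving out ICC-MY replicate 1 also ended the second (0.0553). Cd36 averaged 2.92, 5.16 and 5.61 in ICC-DMP, ICC-MY and tissue and passed in no comparison by limma. Its difference was -2.70 (SE 0.75, adjusted p = 0.0581) in ICC-DMP against tissue and -2.24 (SE 0.67, adjusted p = 0.0911) between the classes.

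**Figure D4:**
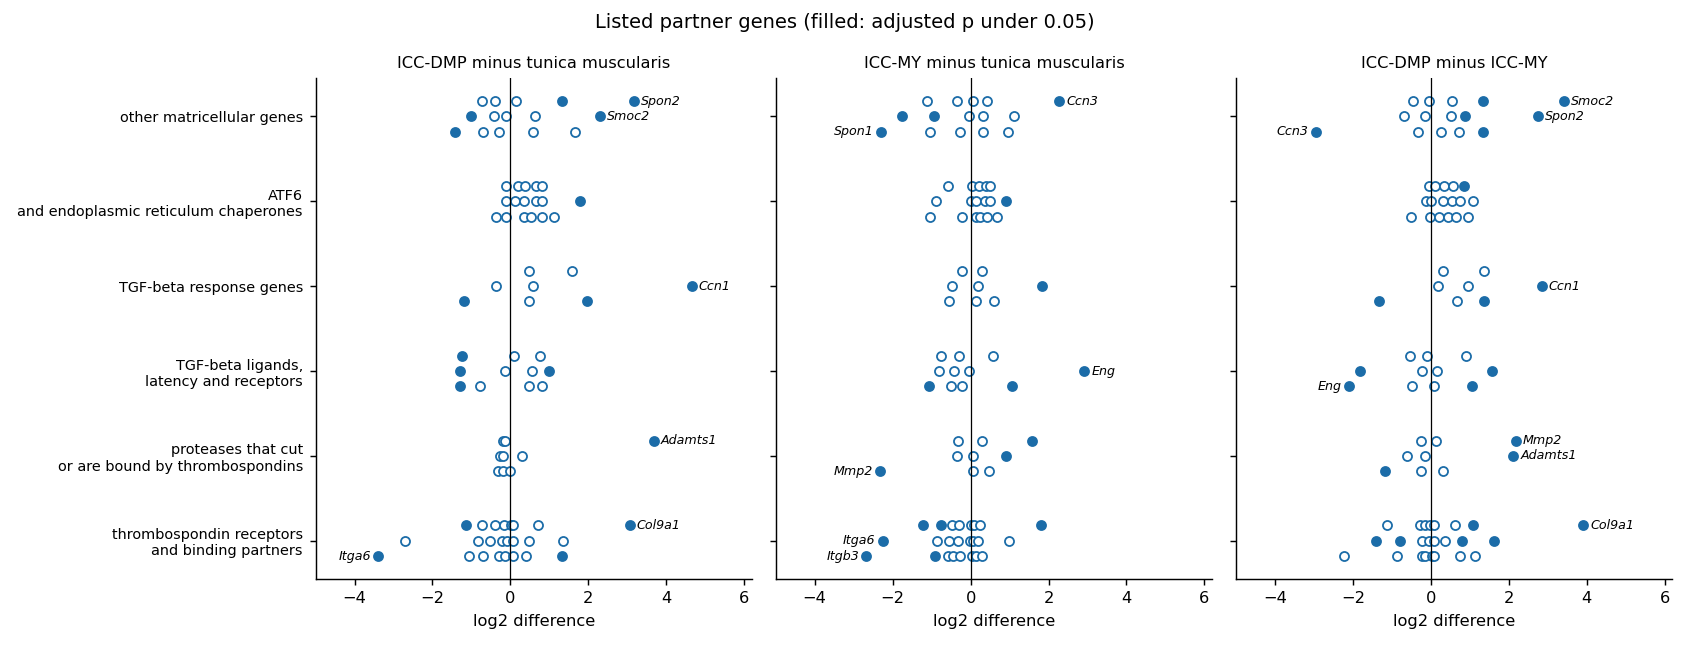
Each point is 1 measured gene of a listed group and shows its log2 difference in 1 of the 3 comparisons; filled points passed at an adjusted p under 0.05 and are named where the difference was at least 2 in size. Most points are open and lie on both sides of 0, with Col9a1, Smoc2, Ccn1, Spon2, Mmp2 and Adamts1 to the right and Ccn3 and Eng to the left in ICC-DMP against ICC-MY.

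Among 9 proteases that cut or are bound by thrombospondins, 2 were higher and 1 lower in ICC-DMP than in ICC-MY. Of all genes 5.36% were higher and 3.3% lower there. Adamts1, which cleaves Thbs1 and Thbs2, had means of 9.63 ± 0.08 (SD, n = 3, ICC-DMP), 7.51 ± 0.45 (n = 3, ICC-MY) and 5.93 ± 0.35 (n = 2, tissue), the group order of Thbs1. It was higher than tissue by 3.69 (SE 0.27) and 1.58 (SE 0.27). Mmp2, a gelatinase that Thbs2 binds and clears, was lower in ICC-MY than in tissue (-2.33, SE 0.37) and than in ICC-DMP (2.18 higher there, SE 0.33). Adamts4 was lower in ICC-DMP than in ICC-MY (-1.17, SE 0.17).

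TGF-beta genes, relevant to Thbs1 as an activator of the latent factor, were mixed. Of 11 ligand, latency and receptor genes, ICC-DMP had 1 higher and 3 lower than tissue, 2 were higher and 1 lower in ICC-MY than in tissue, and 2 were higher and 2 lower between the classes. Eng, a TGF-beta co-receptor, was higher in ICC-MY than in tissue by 2.92 (SE 0.32), and Ltbp1, which holds latent TGF-beta in the matrix, was lower in ICC-DMP than in ICC-MY (-1.82, SE 0.28). Tgfb2 was lower than tissue in ICC-DMP (-1.30, SE 0.22) and in ICC-MY (-1.07, adjusted p = 0.014 by limma). The ICC-MY call was lost with only these groups fitted (adjusted p = 0.0629 by limma). Of 8 TGF-beta response genes, 2 were higher and 1 lower in ICC-DMP, both against tissue and against ICC-MY. Ccn1 rose by 4.66 (SE 0.22) over tissue and 2.84 (SE 0.20) over ICC-MY, Smad7 by 1.96 (SE 0.20) and 1.37 (SE 0.18), and Pmepa1 differed by -1.18 (SE 0.13) and -1.32 (SE 0.12). Ccn1 and Smad7 also respond to other early signals, and TGF-beta activity was not measured.

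Genes of the ATF6 branch of the stress response, which Thbs4 is known to engage, did not follow Thbs4 as a group. Of 17 ATF6 and endoplasmic reticulum chaperone genes, Ddit3 alone passed in each comparison, with list medians of 0.38 in ICC-DMP against tissue, 0.21 in ICC-MY against tissue and 0.33 between the classes. Ddit3, a stress-induced transcription factor gene, averaged 8.35 ± 0.12 (SD, n = 3), 7.49 ± 0.25 (n = 3) and 6.57 ± 0.35 (n = 2) in ICC-DMP, ICC-MY and tissue, and was 1.79 (SE 0.21, adjusted p = 0.000925 by limma) higher in ICC-DMP than in tissue. Its smaller difference between the classes (0.86) did not pass when any ICC-DMP array or ICC-MY replicate 3 was left out (adjusted p = 0.0609 to 0.111 by limma). That of ICC-MY from tissue (0.92) no longer passed without ICC-MY replicate 2 (adjusted p = 0.062 by limma), without tunica muscularis replicate 1 (0.119), without both narrow-range arrays (0.69, adjusted p = 0.0918) or with only these groups fitted (0.0919).

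Other matricellular genes, secreted regulators of the matrix like the thrombospondins, changed in both directions. Of 15, 5 were higher and 1 lower in ICC-DMP than in ICC-MY (median 0.52), where 5.36% of all genes were higher and 3.3% lower. Against tissue 3 were higher and 2 lower in ICC-DMP (3.72% and 7.32% of all genes). In ICC-MY 1 was higher and 3 were lower than in tissue (4.05% and 9.78% of all genes). Spon2, a secreted protein with a thrombospondin type 1 repeat, had means of 11.26 ± 0.29 (SD, n = 3, ICC-DMP), 8.51 ± 0.46 (n = 3, ICC-MY) and 8.09 ± 0.32 (n = 2, tissue), the group order of Thbs4. It was 2.75 (SE 0.26) higher in ICC-DMP than in ICC-MY. Smoc1 was higher in ICC-DMP than in ICC-MY by 1.35 (SE 0.22), and Ccn3 was lower by limma (-2.96, SE 0.54, adjusted p = 0.0108). Spon1, a relative of Spon2 with several such repeats, was lower than tissue in ICC-DMP (-1.42, SE 0.20) and in ICC-MY (-2.30, SE 0.20). Between the classes Spon1 had the direction of Spon2, being 0.88 higher in ICC-DMP (SE 0.18, adjusted p = 0.0182 by limma). This difference fell short of passing (adjusted p = 0.0517 to 0.0678) in limma fits that omitted ICC-DMP replicate 2 or 3, or ICC-MY replicate 2.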

How the data were processed

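Values were taken from the deposited table of log2 expression values, with 1 value for each probe set on each array. The submitters' processing notes list RMA and limma but neither their versions nor what each was used for. Whether all arrays were normalized jointly is not stated by the sources at hand. About 50 ng of total RNA went through 2 rounds of amplification and biotin labelling, per the labels. Of 45101 probe sets, 64 controls were left out. Of the rest, 34945 named 1 gene in the platform annotation, 932 several and 9160 none; 34741 of the single-gene probe sets matched the RefSeq table (GRCm38.p6) by Entrez identifier. Each of 18193 genes was represented by its probe set with the highest mean over 8 arrays. The values were used as deposited, dim probe sets included.

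Titles gave the groups. One limma model (version 3.58.1, R 4.3.3; lmFit, then eBayes) held the 3 groups and 8 arrays, left 5 residual degrees of freedom (prior 3.17) and gave 3 contrasts, adjusted by Benjamini-Hochberg over 18193 genes. Errors of differences are standard errors (SE) from that fit and intervals are 95% intervals on 8.17 degrees of freedom. The code was tested on simulated data. The number of arrays limits the precision. Titles call the samples biological replicates without saying whether they came from separate animals, so p-values measure the spread between samples. The main fit did not pair the samples by the numbers in the titles. Deviations from the group means of same-numbered samples correlated at 0.289, 0.5 and 0.387 between ICC-DMP and ICC-MY. For differently numbered samples of these classes the values were -0.338 to -0.0157, and deviations that cancel out within a group favour negative values there. With tissue the same-numbered values were 0.155 to 0.608. The 2 tissue arrays deviate as mirror images, so the other tissue array gave the same values with the sign turned. The labels state no shared animal or day for a number, and the replicate block was run as an alternative.

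The members and gene lists were chosen with earlier results of these data known. All 5 members and their probe sets were named. From each partner list up to 4 called genes per contrast with the largest differences could be named, and from marker lists genes that bear on a member. For likeness, the 3 genes with the highest Pearson correlation over the 8 arrays were named, among genes ranging over at least 1 log2 unit. Neighbours are the nearest named protein-coding genes on each side. Lists without their own account in the text were used to describe the samples. Endothelial markers (10 measured) were lower for 3 in ICC-DMP and 1 in ICC-MY than in tissue, pericyte markers (6) higher for 2 in each, enteric glia markers (5) lower for 2 in each, and ICC markers (5) higher for 2 and 4.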

Additional observations from a re-analysis of the deposited data

Results flagged for a closer look

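A probe set outside the comparisons gave a signal above the tissue samples. It names both Pald1 and Thbs1 in the platform annotation, so it was left out of the Thbs1 value. It read 9.27, 9.34 and 9.24 in ICC-DMP, 7.64, 8.09 and 7.84 in ICC-MY and 5.0 and 5.91 in tissue. By limma over all 45037 probe sets it was higher than tissue by 3.83 (SE 0.26, adjusted p = 5.22e-05) in ICC-DMP and by 2.41 (SE 0.26, adjusted p = 0.000593) in ICC-MY, and higher in ICC-DMP than in ICC-MY by 1.42 (SE 0.23, adjusted p = 0.00749). Its group order was that of the main Thbs1 probe set, with larger differences. The probe set that names Pald1 alone had another order, with means of 6.2 in ICC-DMP, 5.19 in ICC-MY and 5.53 in tissue. Which transcript the shared probe set reads was not tested.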

How the results depend on the processing

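Each of the 15 differences of the 5 genes was recomputed under up to 18 alternatives, 267 values in all. Of these, 242 kept their direction and their side of the threshold, 9 lost a call, 7 gained one and 9 changed sign, all of the last among differences that did not pass. The alternatives are not independent, so the tally is no measure of robustness. Leaving out an array of the group outside a comparison left the difference itself as it was. Between the ICC classes, leaving out either tissue array gave the same fit as fitting only these classes. Comp has no value with dim probe sets removed (log2 value above 6 on at least 2 arrays). The replicate block changed no call on the members; it turned the sign of the uncalled Comp difference of ICC-DMP from tissue (-0.049), which also turned under quantile normalization (-0.013). Thbs2 in ICC-DMP against tissue turned without both narrow-range arrays (-0.13) and with probe sets averaged (-0.064). Thbs3 between the ICC classes no longer passed with arrays centred on their medians (0.99). Thbs3 in ICC-DMP against tissue passed under quantile normalization (-0.69) and without both narrow-range arrays (-0.78), and Thbs4 in ICC-MY against tissue passed under these settings (0.94 and 1.11) and with array weights (1.13). The causes were not tested.

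With each array left out in turn, differences between the ICC classes ran from 0.81 to 1.17 for Thbs1, 0.68 to 1.12 for Thbs3 and -0.25 to 0.012 for Comp. In ICC-DMP against tissue they ran from -0.13 to 0.58 for Thbs2, -0.78 to -0.45 for Thbs3 and -0.097 to 0.15 for Comp, and in ICC-MY against tissue from -0.60 to 0.11 for Thbs2 and 0.62 to 1.22 for Thbs4. Genes that passed ran from 991 to 1840 between the ICC classes (991 and 996 without ICC-DMP replicates 1 and 2) and from 1264 to 2480 in ICC-DMP against tissue (1264 and 1296 without the same arrays).

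Between the ICC classes 2617 genes passed with the replicate block, 2557 under quantile normalization, 2646 with array weights, 2630 without both narrow-range arrays and 3335 with every probe set on its own. In ICC-DMP against tissue 3129 passed under quantile normalization and 5657 with every probe set. In ICC-MY against tissue the counts were 3911 and 5691, and 1520 with only these groups fitted. Of 65 called differences of other listed and neighbouring genes, 34 kept their call under every alternative and 36 with each array left out. Called members of the receptor list ran from 4 to 8 of 24 between the ICC classes with 1 array left out. The uncalled Ano1 difference between the classes (0.062) turned under quantile normalization (-0.24), array weights (-0.25), without both narrow-range arrays (-0.37) and with probe sets averaged (-0.32), and ran from -0.37 to 0.31 with 1 array left out. That of Mtx1 ran from -0.44 to 0.15.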
